A study of Mus musculus with 2 samples.

Results

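The genes described here are 6 members of the S100 family, S100a4, S100a6, S100a8, S100a9, S100a10 and S100a11, chosen by their symbols out of the 32285 genes of the count table, and all 6 had UMIs. They were measured in 1 droplet single-cell RNA-Seq library of osteal macrophages (Omacs), which were sorted with antibodies against CD11b, F4/80 and CD68 from digested femurs and vertebrae of female BALB/c mice, 4 weeks after ovariectomy (OVX) or a sham operation. Cells of 1 pool of OVX mice carried hashtag 1 and cells of 1 pool of sham mice carried hashtag 2, so both conditions shared the library, and no animal could be told from another. HTODemux gave 1059 of the 2349 barcodes to OVX and 981 to sham, and 309 to no single condition. It calls a barcode positive where its hashtag count passes a cutoff set from background counts across barcodes. With 1 pool per condition there was no replicate check, so no test was made, and every interval below is a 95% interval that covers counting error only.

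S100 proteins are small calcium-binding proteins that mostly work as dimers. S100A8 and S100A9 pair to form calprotectin, a major cytosolic protein of neutrophils that binds zinc and manganese and that acts as an alarmin through TLR4 and RAGE once it is released. The other members are used more widely: S100A10 binds annexin A2, S100A4 binds nonmuscle myosin and is known from macrophages and fibroblasts, and S100A6 and S100A11 are expressed in many cell types and also bind annexins.

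The cells were grouped by clustering with every S100 gene left out, so that the levels compared below did not define the groups. Of the 2349 barcodes, 1783 (75.9%) lay in 4 neutrophil-like classes. These were 45 cycling precursor-like cells (led by Hist1h3c, Top2a and Mki67), 258 secondary-granule neutrophil-like cells (led by Ltf, Camp and Ngp), 345 stefin-high neutrophil-like cells (led by Retnla, Stfa2 and Stfa2l1) and 1135 mature neutrophil-like cells (led by Acod1, Gm12840, Hcar2 and Jaml). A macrophage-like class of 120 cells was led by Pf4, Ppbp, H2-Aa and Arg1. In counts per 1000000 UMIs (CPM), its Arg1 level was 3749.5 and its Msr1 level 812, but C1qa and C1qb were each at 0.969, C1qc was at 0, and Adgre1, the gene of F4/80, was at only 63.0. Of the 839 CPM of the megakaryocyte markers in that class 838.5 were Ppbp, and the primary-granule markers summed to 238 CPM against 13.9 in the neutrophil-like classes. A stromal-like class of 209 cells was led by Prg4, Saa1, Ccn2 and Dcn, and a cluster of 237 cells led by Gm42418 and Jund was left unnamed. The mature neutrophil markers summed to 14891.5 CPM in this unnamed cluster, above the 11498 CPM of the secondary-granule class. Its cells thus also expressed neutrophil genes, but they are not counted in the 75.9% or in any level given for the neutrophil-like classes. The mature neutrophil markers summed to 22922 CPM in the mature class and to 23038 CPM in the stefin-high class, so they did not separate these 2 classes. The name of the mature class rests on this sum, since its 10 leading genes hold no gene of that list and 1 marker of activated neutrophils, Jaml. The labels call the sorted cells macrophages, whereas most of these barcodes expressed neutrophil genes.

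All 6 genes lie on mouse chromosome 3 (GRCm38). S100a4 (chr3:90603771-90606045), S100a6 (chr3:90612882-90624181), S100a8 (chr3:90668978-90670035) and S100a9 (chr3:90692632-90695721) lie within 92.0 kb, and S100a11 (chr3:93520488-93526287) and S100a10 (chr3:93555080-93564643) lie next to each other in a second stretch of 44.2 kb. S100a9 is on the minus strand and the other 5 are on the plus strand. S100a4 shares exon sequence on its own strand with Gm42674, and the other members overlap no annotated gene.

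RefSeq promoter windows (GRCm38.p6, 250 bases before to 50 bases after the gene start) were found for 5 of the 6 members. Those of S100a8 and S100a9 are shown because both genes had the highest levels and the most similar pattern, and that of S100a4 because its level was highest in another class. Capitals mark TATAAA, the TATA box, and TTNCNNAA, letters close to the site of C/EBP factors, each searched on both strands, and each sequence runs 5′ to 3′ along its gene.
S100a8, chr3:90668821-90669120, plus strand: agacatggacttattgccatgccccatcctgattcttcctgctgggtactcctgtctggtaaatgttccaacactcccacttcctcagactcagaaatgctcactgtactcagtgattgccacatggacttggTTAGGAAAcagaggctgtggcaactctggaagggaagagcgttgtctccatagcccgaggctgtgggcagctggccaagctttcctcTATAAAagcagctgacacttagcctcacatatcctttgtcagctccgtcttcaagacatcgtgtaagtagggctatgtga
S100a9, chr3:90695672-90695971, minus strand: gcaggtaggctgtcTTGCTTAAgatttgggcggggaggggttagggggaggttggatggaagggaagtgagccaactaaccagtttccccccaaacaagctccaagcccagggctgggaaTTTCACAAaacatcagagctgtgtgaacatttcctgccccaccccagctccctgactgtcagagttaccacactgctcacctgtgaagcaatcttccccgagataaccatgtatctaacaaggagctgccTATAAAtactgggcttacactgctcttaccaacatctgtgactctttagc
S100a4, chr3:90603520-90603819, plus strand: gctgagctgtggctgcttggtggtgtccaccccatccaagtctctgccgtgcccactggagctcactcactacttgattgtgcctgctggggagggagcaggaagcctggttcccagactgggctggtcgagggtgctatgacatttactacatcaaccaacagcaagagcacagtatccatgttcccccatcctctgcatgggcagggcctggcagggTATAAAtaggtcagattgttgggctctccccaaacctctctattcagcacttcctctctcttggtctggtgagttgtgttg

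The TATAAA letters began 30 bases before the listed start of S100a8 and 31 bases before that of S100a4, whereas in S100a9 they began at the listed start itself. Such letters at 20 to 40 bases before the start and on the gene's own strand were found in 1.99% of the 32851 promoters of the table, and anywhere on either strand in 13.6%. The TTNCNNAA letters occurred 1 time in the S100a8 window and 2 times in the S100a9 window, and they were absent from the windows of S100a4, S100a6 and S100a11. They occurred in 40.7% of all promoters, so a match in both calprotectin genes is a description of the windows and no more. TGANTCA, letters close to the AP-1 site, had 2 matches in the S100a11 window and none in the other 4, against 7.81% of all promoters with a match. GAGGAA, letters of the PU.1 core, had 2 matches in the S100a8 window and 1 each in those of S100a4 and S100a11, against 28.3% of all promoters.

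To compare the members across cell types, the UMIs of each gene were summed over the cells of a class and divided by all gene UMIs of these cells, giving CPM. In this 3′ assay 1 tag is counted per molecule, so the values were not divided by gene length. S100a8 and S100a9 together made up 27.3% of all UMIs of the neutrophil-like classes. In the median neutrophil-like cell they made up 23.6%, with quartiles of 12.6 and 31.7%, and in the highest cell they made up 61.0%. All 6 members together accounted for 29.0% of the UMIs of these cells. The unnamed Gm42418 and Jund cluster, which is left out of these shares, had lower levels of the pair. S100a8 was at 52539 CPM there against 115728 in the neutrophil-like classes, and S100a9 at 57928 against 157722.

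S100a9 was highest in the cycling and secondary-granule classes. Its level was 198094 CPM (interval 196992 to 199200) in cycling precursor-like cells, 201893 in secondary-granule cells, 161825 in stefin-high cells and 126621 in mature cells. The secondary-granule level was 1.59-fold the mature level (interval 1.59 to 1.60), and the cycling level was 0.981-fold the secondary-granule level (interval 0.975 to 0.987). S100a8 varied less, with 119007 in cycling, 119045 in secondary-granule, 128413 in stefin-high and 104800 in mature cells. The intervals of the first 2 of these overlapped (118154 to 119865 and 118597 to 119494), and the highest of the 4 levels was 1.23-fold the lowest.

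The number of S100a8 UMIs per S100a9 UMI differed by class. It was 0.601 in cycling precursor-like cells, 0.590 in secondary-granule cells, 0.794 in stefin-high cells and 0.828 in mature cells. The order of the stefin-high and mature classes depended on the clustering. Within each of these classes the 2 genes varied together from cell to cell. After each cell was thinned to 1000 UMIs, Spearman's rho between them was 0.816 over the 1059 mature cells that were deep enough and 0.584 over 253 secondary-granule cells, and these points share 1 library and a fixed total. S100a8 exceeded S100a9 in 36.0% of the mature cells and in only 2.37% of the secondary-granule cells.

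When the cells were divided into 8 clusters instead of 6, most mature neutrophil-like cells fell into 2 larger groups. A group of 500 cells led by Thbs1 and Retnlg had 125698 CPM of S100a8 and 161312 of S100a9. A group of 487 cells led by Gm12840, Mpzl2 and Jaml, in which the markers of activated neutrophils (Ccl3, Ccl4, Cxcl2, Jaml, Clec4n and Mefv) summed to 10257 CPM against 3470.01 in the Thbs1 cells, had 80841 of S100a8 and 77713 of S100a9. Both genes were thus lower in the Gm12840 and Jaml cells, S100a9 more so than S100a8. No other group of that clustering had more S100a8 than S100a9 UMIs, and here the ratio was 1.04 (interval 1.03 to 1.05). These cells were also shallower, with a median of 2609 UMIs against 3914.5.

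Depth moved with the level of the pair within the mature class. In the 378 mature cells with the fewest UMIs (507 to 2450 per cell) the median cell held 7.43% of its UMIs in S100a8 and S100a9, in the 378 cells of middle depth 18.7%, and in the 379 deepest cells (4175 to 21552 UMIs) 28.1%. S100a6 went the same way, from 0.530 to 1.22% of all UMIs, whereas S100a11 went only from 0.383 to 0.488%. The part of depth in the differences between classes was not tested.

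S100a6 was the third most abundant member in every neutrophil-like class. It was lowest in cycling precursor-like cells, with 6403 CPM (interval 6207 to 6605), and higher in mature cells (10252), secondary-granule cells (12236) and stefin-high cells (16001). The stefin-high level was 1.56-fold the mature level (interval 1.54 to 1.58), the largest difference of any abundant member between these 2 classes. S100a11 was also lowest in cycling cells, with 1925 CPM, and it reached 3495 in secondary-granule, 4595 in stefin-high and 4730 in mature cells. The stefin-high level was 0.97-fold the mature level (interval 0.951 to 0.992). Among the 4 neutrophil-like classes S100a9 was thus lowest in mature cells, where S100a11 was highest by a small margin.

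S100a10 and S100a4 were close to 0 in neutrophil-like cells. S100a10 had 182 UMIs in the 1783 cells (17.5 CPM), and S100a4 had 78 (7.49 CPM), of which 61 came from 2 cells, both from OVX mice. Without these 2 cells the S100a4 level of the neutrophil-like classes was 1.64 CPM. After thinning to 1000 UMIs, 0.883% of neutrophil-like cells held a UMI of S100a10 and 0.294% held a UMI of S100a4, compared with 99.6% for S100a8, 99.8% for S100a9, 95.1% for S100a11 and 94.1% for S100a6.

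**Figure D1:**
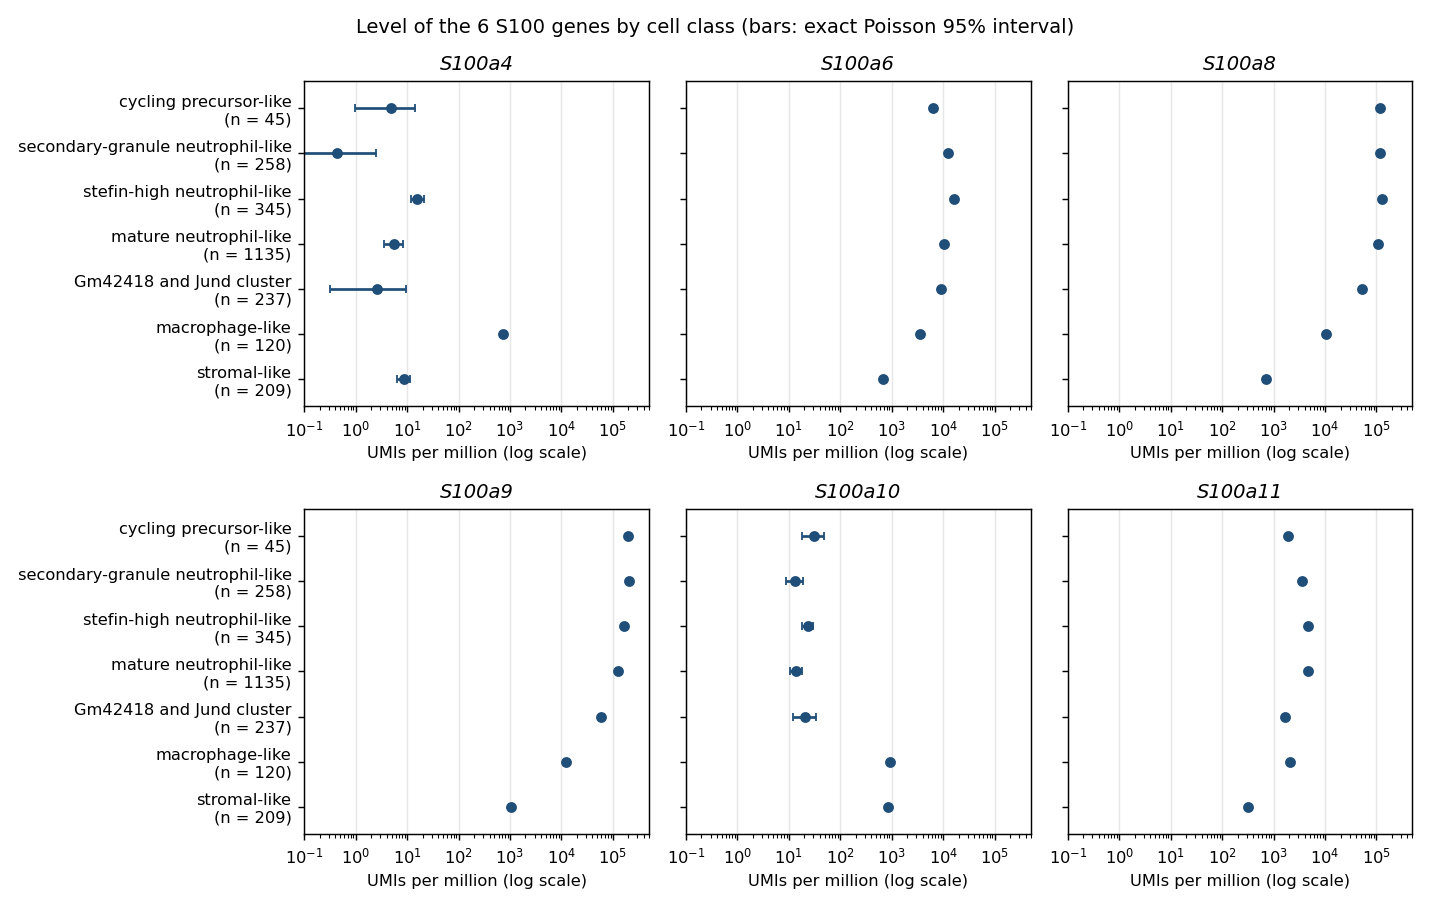
CPM of each of the 6 S100 genes (log axis) in the 7 cell classes, with points for the summed level and bars for the exact Poisson 95% interval, which is hidden by the point where it is narrow. S100a8 and S100a9 lie between 104800 and 201893 in the 4 neutrophil-like classes, whereas S100a4 stands out in the macrophage-like class alone and S100a10 in both the macrophage-like and the stromal-like class.

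The members kept their neutrophil-like order of levels in macrophage-like cells, but not in stromal-like cells. In stromal-like cells S100a9 had 1043 CPM, S100a10 850, S100a8 727, S100a6 688, S100a11 318 and S100a4 8.78. S100a10 was 48.6-fold higher than in neutrophil-like cells (interval 41.9 to 56.7), with 4648 UMIs in 209 stromal-like cells. After thinning, 46.7% of 197 stromal-like cells held an S100a10 UMI against 0.883% of 1698 neutrophil-like cells, whose median depths before thinning were 20087 and 4253 UMIs. Of the 5 members at 100 CPM or more in either class, S100a10 was at least 2-fold higher in stromal-like cells, where 49.8% of 2140 genes were, and S100a6, S100a8, S100a9 and S100a11 were at least 2-fold lower, where 27.4% of genes were.

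The low levels of the other members in stromal-like cells were set beside those of neutrophil genes. S100a8 stood at 0.629% of its neutrophil-like level and S100a9 at 0.661%. Of 15 secondary-granule and mature neutrophil markers, 12 stood below 2.5%, among them Ngp at 0.695%, Retnlg at 1.03%, Ltf at 1.05% and Cxcr2 at 1.18%, so both calprotectin genes lay below all 15 of these markers. Outside these 15, the stefin-class markers Stfa2l1 (0.513%) and Wfdc21 (0.579%) stood below both calprotectin genes. The other markers of the stefin-high and activated neutrophils stood above both. The part of free RNA in the droplets was not tested. After thinning, 43.1% of stromal-like cells held an S100a8 UMI. S100a6 at 5.67% and S100a11 at 7.49% lay above these 12 markers, whereas Camp (26.5%), Slpi (23.5%) and Lcn2 (45.5%) lay above both. A total of 3 of the 209 stromal-like cells held more than 0.5% S100a8, up to 6.98%, and without them S100a8 was at 459, S100a9 at 766 and S100a10 at 856 CPM.

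**Figure D2:**
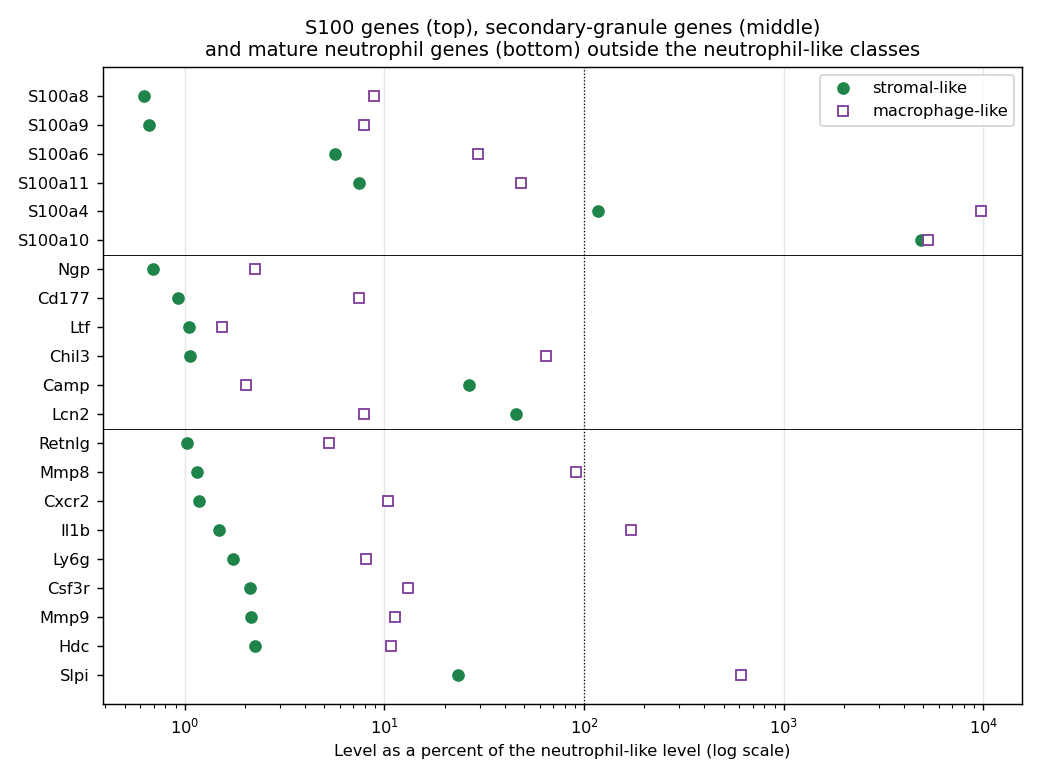
Level of each S100 gene, secondary-granule gene and mature neutrophil gene in stromal-like cells (filled circles) and macrophage-like cells (open squares) as a percent of its level in the neutrophil-like classes (log axis, dotted line at 100%). S100a8 and S100a9 lie beside Ngp in stromal-like cells, S100a6 and S100a11 lie above most neutrophil genes, and S100a10 lies at 4864% and 5277%.

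In macrophage-like cells S100a4 reached 725 CPM (interval 674 to 779), 96.8-fold its level in neutrophil-like cells (interval 76.6 to 124), and S100a10 reached 922, 52.8-fold. With the S100 genes kept in the clustering these folds were 23.0 and 20.7, and the S100a4 fold depends on the 2 neutrophil-like cells that held 61 of the 78 UMIs, without which its neutrophil-like level was 1.64 CPM. S100a4 had a UMI in 59 of the 120 cells, and after thinning in 34.0% of 97 cells, against 0.294% of neutrophil-like and 0.508% of stromal-like cells. The macrophage-like and stromal-like levels of S100a10 differed by little (922, interval 864 to 982, and 850, interval 825 to 875). S100a11 was at 2046, S100a6 at 3558, S100a8 at 10291 and S100a9 at 12451 CPM, and all 4 were at least 2-fold lower than in neutrophil-like cells, as were 16.8% of 1777 genes. S100a11, at 0.481-fold, was close to that limit and did not reach it under 4 other choices of genes or barcodes for the clustering (0.503- to 0.628-fold). S100a4 and S100a10 were at least 2-fold higher, as were 40.3% of genes.

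The macrophage-like class was mixed, and its S100 genes divided with it. When it was clustered alone into 4, a choice made after its values were seen, 41 cells led by Ppbp, Arg1 and Pf4 had 1024 CPM of S100a4, 1240 of S100a10 and 4757 of S100a6, with only 1208 of S100a8 and 979 of S100a9. In 21 cells led by Cd36, Lgmn and Maf, S100a8 was at 40782 and S100a9 at 45451, whereas S100a4 was at 141.5 and S100a10 at 372. The median cell of that group held 0.718% of its UMIs in S100a8, far below the summed level, so its cells differed widely. A group of 26 cells led by H2-Aa, Cd74 and Ccl22 had 690 of S100a4, 878 of S100a10 and 9935 of S100a8. Its median cell held only 0.081% of its UMIs in S100a8, again far below the summed level. Ccl17, Ccr7, Elane and Prtn3 were also among its leading genes. The remaining 32 cells were led by mitochondrial transcripts, with a median of 83.8% mitochondrial UMIs, and had 98.9 of S100a4 and 74.2 of S100a10. S100a4 was thus highest in the Arg1 cells, and the median S100a8 share of these cells was 0.107%, close to the 0.136% of the whole class. The macrophage markers summed to 15795 CPM in the Arg1 cells and 11238 in the Cd36 cells. They summed to only 1186 in the H2-Aa cells and 98.9 in the mitochondrial cells, against 122 in neutrophil-like cells.

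**Figure D3:**
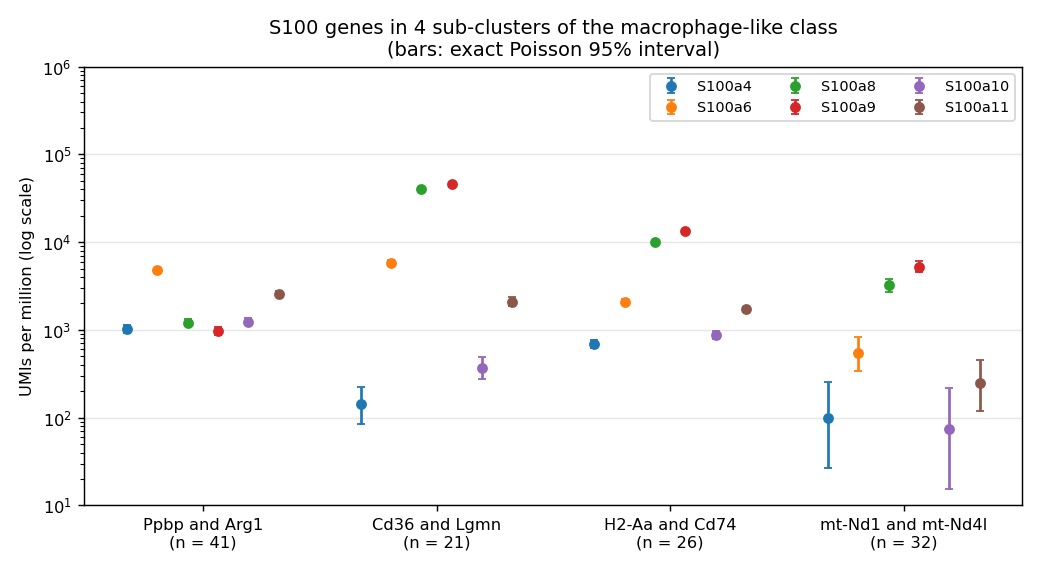
CPM (log axis) of the 6 S100 genes in the 4 sub-clusters of the macrophage-like class, with exact Poisson 95% intervals as bars. In the 41 Ppbp and Arg1 cells all 6 genes lie between 979 and 4757, whereas in the 21 Cd36 and Lgmn cells S100a8 lies at 40782 and S100a9 at 45451, with S100a4 at 141.5.

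Ovariectomy was compared with the sham operation over all cells first. S100a6 was at 10976 CPM in OVX and 7104 in sham cells, a 1.54-fold higher level (interval 1.53 to 1.56). S100a8 was at 89973 and 73315 (1.23-fold), S100a9 at 116919 and 103182 (1.13-fold) and S100a11 at 3481 and 2877 (1.21-fold). S100a10 was lower in OVX cells, with 199 against 305 CPM (0.654-fold, interval 0.611 to 0.699). S100a4 was at 28.1 in OVX and 96.3 in sham cells, below the 100 CPM asked for, and 0.292-fold. Of the 5 members that passed this filter, S100a6 was at least 1.5-fold higher, as were 6.04% of 1456 genes, and S100a10 was at least 1.5-fold lower, as were 16.3%. The median gene was shifted by -0.11 on the log2 scale.

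The 2 conditions held different shares of the classes, and these values stand beside the comparison. The stefin-high class held 28.0% of OVX and 3.57% of sham barcodes, mature cells 42.7 and 61.0%, secondary-granule cells 7.65 and 13.7%, macrophage-like cells 3.40 and 6.42% and stromal-like cells 3.59 and 5.50%. In OVX cells 50.6% of the S100a6 UMIs came from the stefin-high class. In sham cells 92.4% of the S100a4 UMIs and 33.9% of the S100a10 UMIs came from the macrophage-like class, and in OVX cells 66.2 and 16.6%. In 1 library made from dissociated bone, fewer cells of a type and less RNA per cell of that type cannot be told apart in a level summed over all cells. When each class was given the same weight in both conditions, S100a6 was 1.17-fold, S100a11 1.06-fold, S100a10 1.13-fold, S100a8 0.969-fold and S100a9 0.927-fold the sham level, so none of these 5 members reached 1.5-fold and S100a8, S100a9 and S100a10 changed direction. S100a4 was then at 37.6 and 56.3 CPM (0.667-fold), and 0.493-fold when every cell had equal weight.

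Within the neutrophil-like classes as a whole, S100a8 was at 117296 in OVX and 114535 in sham cells (1.02-fold), S100a9 at 153899 and 161471 (0.953-fold), S100a11 at 4399 and 4138 (1.06-fold) and S100a6 at 13751 and 10366.5 (1.33-fold). None of these 4 members reached 1.5-fold, whereas 5.14% of 1265 genes were higher and 5.30% lower by that much. Of the 4, S100a6 had the largest ratio over these classes as a whole. By class it was 1.35-fold higher in secondary-granule cells (14827 and 11006), 1.13-fold in mature cells (11018.5 and 9723) and 1.09-fold in stefin-high cells (16263 and 14929), and in the 18 and 21 cycling cells it was lower (5449 and 7450, 0.731-fold). Over the neutrophil-like classes the OVX cells were deeper, with a median of 4881.5 UMIs against 3702.5 in sham cells. The part of depth in these ratios was not tested.

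The class-wise values of S100a8 and S100a9 went both ways. S100a9 was lower in OVX cells of the stefin-high class (158332 against 195754, 0.809-fold) and of the mature class (117036 against 134456, 0.870-fold), higher in secondary-granule cells (216773 against 193309, 1.12-fold), and nearly equal in cycling cells (197402 and 199565). S100a8 was 0.921-fold in stefin-high, 0.939-fold in mature, 1.10-fold in secondary-granule and 0.762-fold in cycling cells. None of the 4 members at 100 CPM or more (S100a6, S100a8, S100a9 and S100a11) reached 1.5-fold in any of the 4 neutrophil-like classes, where the share of genes that did so in either direction was 32.0% in cycling, 16.4% in secondary-granule, 27.6% in stefin-high and 12.1% in mature cells. Below 100 CPM, S100a4 had 23 UMIs in OVX and 2 in sham mature cells and 48 and 1 in stefin-high cells, and the 2 cells named above held most of its OVX UMIs. S100a10 had 36 and 24 UMIs in mature cells (1.70-fold, interval 0.984 to 2.97).

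S100a8 was higher relative to S100a9 in OVX cells in 2 of these classes. The ratio was 0.868 in OVX and 0.804 in sham mature cells, and 0.806 and 0.708 in stefin-high cells, while it was 0.584 and 0.597 in secondary-granule cells and 0.519 and 0.674 in cycling cells. In the finer clusters the Gm12840 and Jaml cells had 1.07 in OVX and 0.962 in sham cells, and the Thbs1 cells 0.762 and 0.787, so the 2 parts of the mature class lay in opposite directions. The Gm12840 and Jaml cells numbered 260 in OVX and 207 in sham, and the Thbs1 cells 157 and 305.

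**Figure D4:**
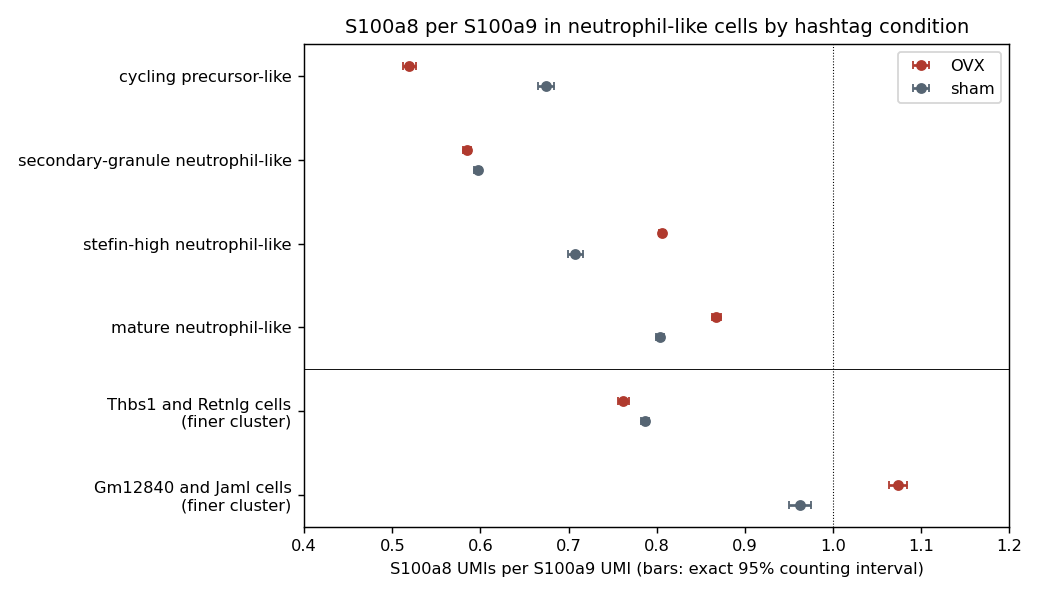
S100a8 UMIs per S100a9 UMI in OVX (red) and sham (grey) cells of the 4 neutrophil-like classes and, below the line, of 2 finer clusters of mature cells, with exact 95% counting intervals as bars and a dotted line at 1. The cycling and secondary-granule classes lie between 0.519 and 0.674, and OVX lies above sham in stefin-high, mature and Gm12840 and Jaml cells.

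In macrophage-like cells (36 OVX and 63 sham) S100a8 was at 16093 in OVX and 8644 in sham cells (1.86-fold) and S100a9 at 17146 and 11293 (1.52-fold), whereas S100a4 was at 534 and 806 (0.662-fold). These 3 of the 6 members passed 1.5-fold, in a class where 12.7% of 1722 genes were higher and 18.9% lower by that much. In OVX cells 2 cells held 40.6% of the S100a8 and 50.1% of the S100a9 UMIs, and in sham cells 2 cells held 59.7 and 64.1%. Without the 2 highest cells in each condition S100a8 was at 10766 and 4316, and S100a9 at 9312 and 5032. The cells led by mitochondrial transcripts, in which S100a4 was low, made up 12 of the 36 OVX and 9 of the 63 sham cells, and their part in these differences was not tested. The median cell held 0.247% S100a8 in OVX and 0.119% in sham, and 0.00348 and 0.0332% S100a4. Within the 41 Ppbp and Arg1 cells alone, 10 from OVX and 27 from sham, S100a4 was at 1112 and 996, and S100a8 at 2119.7 and 986. In the 26 H2-Aa and Cd74 cells, 8 from OVX and 14 from sham, S100a8 went the other way, with 6056 in OVX and 11298 in sham, and S100a9 had 6406 and 15902. The highest sham cell of the macrophage-like class lay among these cells and held 2479 S100a8 and 3514 S100a9 UMIs. All 26 cells together held 4524 and 6135, so the sham levels of this group rested largely on 1 cell. S100a10 was at 950 and 935 CPM in the whole class.

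In stromal-like cells (38 OVX and 54 sham) S100a8 was at 1520 and 568 CPM (2.68-fold) and S100a9 at 1780 and 910 (1.96-fold), in a class where 3.94% of 1725 genes were at least 1.5-fold higher and 4.35% lower. In OVX stromal-like cells 1355 of the 1967 S100a8 UMIs came from 2 cells. Without the 2 highest cells in each condition the S100a8 levels were 489 and 481, and the S100a9 levels 753 and 783. The median cell held 0.04998% S100a8 in OVX and 0.0505% in sham, so the difference rested on those highest cells. S100a10 was at 899 and 777 (1.16-fold), S100a6 at 802 and 684 (1.17-fold) and S100a11 at 392 and 275 (1.42-fold). S100a4 had no UMI in the OVX stromal-like cells, where 3 counts would be 2.32 CPM, and 41 UMIs in the sham cells, 34 of them in 2 cells.

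**Figure D5:**
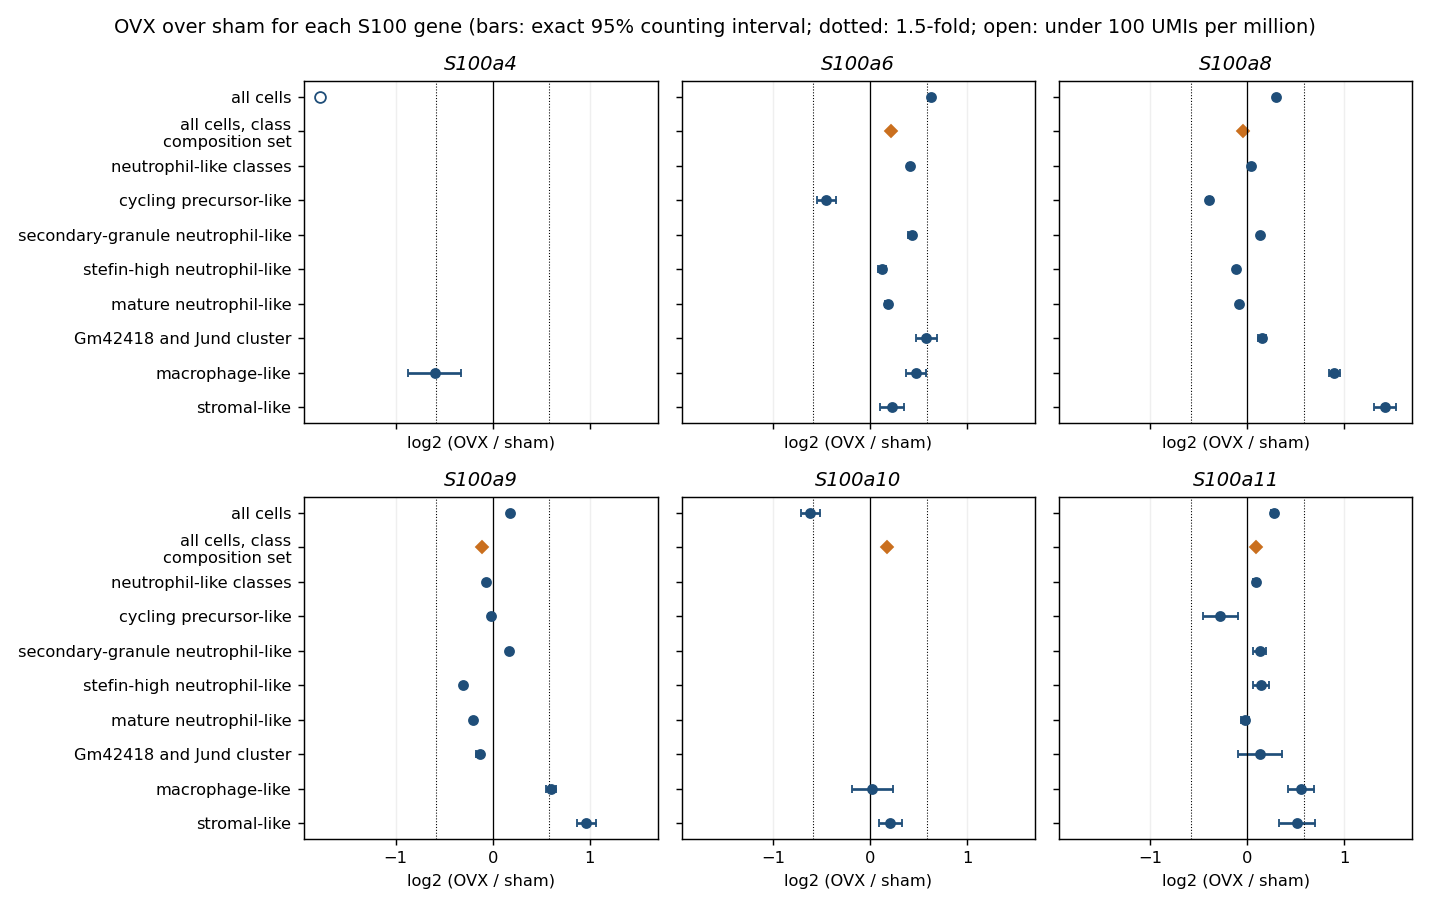
Log2 of the OVX over sham ratio of each S100 gene over all cells, over all cells with the class composition set equal (orange diamonds), over the neutrophil-like classes and in each class, for groups at 100 CPM or more (S100a4 over all cells, open, is below). Bars are exact 95% counting intervals and dotted lines mark 1.5-fold. S100a6 and S100a10 pass 1.5-fold over all cells and not with equal composition, and S100a8 and S100a9 pass it in macrophage-like and stromal-like cells.

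The other genes of the pathway were read from lists of the family, its receptors, its binding partners and the regulators of granulocyte genes. Of 10 other S100 genes, 9 had at least 1 UMI and only S100a13 reached 100 CPM, with 111 in neutrophil-like, 138 in macrophage-like and 95.8 in stromal-like cells. S100a16 (31.6) and S100b (9.69) were highest in stromal-like cells. The expressed part of the family therefore lay almost wholly in the 6 members. Between OVX and sham cells S100a13 differed by 0.940-fold.

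Among 8 receptors of S100 proteins, Tlr4, the receptor of calprotectin, was at 265 CPM in mature cells, 168 in stefin-high cells, 73.5 in secondary-granule cells and 8.59 in stromal-like cells. Cd14, its coreceptor, was at 1220 in mature, 486 in secondary-granule, 1143 in macrophage-like and 686 in stromal-like cells. Ly96, which encodes MD-2, followed at 63.0 in mature and 19.4 in secondary-granule cells. Ager, the gene of RAGE, was near 0 in every class (33 UMIs in all), as was Mcam (7 UMIs). Bsg, the gene of the S100A9 receptor basigin, was highest in stromal-like cells (207) and low in neutrophil-like cells (33.9). Tlr4, Cd14 and Ly96 were each higher in mature cells than in secondary-granule cells, opposite to S100a9. Of the 3 receptors that passed the filter over all cells, none was 1.5-fold higher or lower in OVX cells, against 6.04 and 16.3% of 1456 genes.

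Among 6 intracellular partners, Anxa2, which encodes the annexin that S100A10 binds, was at 476 in neutrophil-like, 738 in macrophage-like and 262 in stromal-like cells, so S100a10 and Anxa2 did not share 1 order of classes. Ahnak, whose protein binds the S100A10 and annexin A2 complex, was at 7.10, 649 and 252 in the same classes, an order like that of S100a10 in its low neutrophil-like level. Myh9, the myosin bound by S100A4, was at 944, 553 and 233. Of the 5 that passed the filter, Ahnak (0.555-fold) and Cacybp (0.588-fold) were at least 1.5-fold lower in OVX cells over all classes, and none was higher. Of all 1456 genes 16.3% were lower and 6.04% higher by that much. Both genes were low in neutrophil-like cells (7.10 and 23.6 CPM). In mature cells Ahnak was at 4.08 in OVX and 2.70 in sham, and Cacybp at 15.8 in both. The part of class composition in the 2 lower levels was not tested.

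Calprotectin is also known to bind the phagocyte NADPH oxidase, and of its genes Cyba was at 1374, Ncf1 at 749 and Rac2 at 530 CPM in neutrophil-like cells, against 94.5, 9.87 and 7.13 in stromal-like cells. Cybb, the catalytic subunit, followed the order of S100a9, with 249 in secondary-granule and 30.8 in mature cells. Of these genes Cyba, Ncf1 and Rac2 passed the filter over all cells without reaching 1.5-fold in either direction in OVX cells. Ncf4 did the same, with 271 CPM in OVX and 185 in sham cells (1.47-fold). Of all 1456 genes 6.04% were higher and 16.3% lower by that much. Cybb was below the filter, at 48.6 CPM in OVX and 84.8 in sham cells (0.573-fold). Of 7 transcription factors of granulopoiesis, Cebpe was at 109 in cycling, 98.99 in secondary-granule and 8.55 in mature cells, whereas Cebpb was at 480, 751 and 1561 in the same classes. None of the 4 that passed the filter reached 1.5-fold, against 6.04% of 1456 genes higher and 16.3% lower.

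To find the genes with the most similar pattern, log2 (CPM + 1) was correlated over the 14 combinations of class and condition, among 3090 genes. The gene most like S100a8 was S100a9 (Pearson r = 0.995), followed by Cd177 (0.987) and Mmp25 (0.984). For S100a6 they were Hk3 (0.974), Morrbid (0.971) and Rasgrp4 (0.967), for S100a11 Prdx5 (0.992), Tyrobp (0.977) and Apobr (0.970), for S100a10 Lmna (0.973), Psma6 (0.946) and Tspan3 (0.946), and for S100a4 Arg1 (0.872), Ms4a6d (0.856) and Prdx1 (0.847). For S100a9 they were S100a8, Cd177 (0.984) and Pglyrp1 (0.978). Among the members, S100a6 and S100a11 went with S100a8 (0.957 and 0.889), S100a10 went against it (-0.866), and S100a4 went with S100a10 only in part (0.609). The points share 1 library, and most of the range lies between neutrophil-like and other classes.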

How the data were processed

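Gene expression was taken from the deposited UMI counts of 1 library (Chromium Next GEM Single Cell 3′ v3.1), which the authors made with Cell Ranger against mm10. The submitters' processing notes give version 6.0.1 and the header of the counts gives 6.0.0. All 2349 deposited barcodes were used, with 500 to 141565 gene UMIs each (median 4387, 4812 in OVX and 3704 in sham cells) and 17681092 in all. The hashtag counts stood among the features of the same counts. UMIs count molecules, and no interval covers variation between mice.

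Conditions were assigned with HTODemux (Seurat 5.3.0, quantile 0.99), which called 78 barcodes doublets and 231 negative. Of the 209 stromal-like barcodes 117 had no single condition. Scrublet marked only 1 barcode as a doublet, so doublets were in effect not removed. Counts were scaled to 10000 per cell, and after removal of all S100 genes 2000 variable genes, 30 principal components and 15 neighbours were used for Louvain clustering (scanpy 1.11.5, igraph 0.11.9) into 6 clusters. The cluster highest in cycling markers was divided into 2. Classes were named from marker lists. Poisson, Clopper-Pearson and conditional binomial intervals were computed with scipy 1.17.1. The ratio and call were checked on simulated Poisson counts, which hold no spread between cells or mice.

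Named genes were the 6 members, listed genes, markers, the 5 leading genes of each cluster and the 3 genes most like each member. Leading genes of finer clusters and of macrophage-like sub-clusters were chosen after their values were seen. Members, lists and comparisons were chosen with earlier results of these data known. Gene positions came from GENCODE M21 and promoters from RefSeq. Alternatives covered clustering, barcodes, hashtag rule, cell weight, denominator, expression filter, class composition and thinning. Part of the list of oxidase genes is not reported here.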

Additional observations from a re-analysis of the deposited data

Results flagged for a closer look

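The OVX over sham ratio of S100a8 and of S100a9 lay in opposite directions in different classes, and with 1 pool per condition this difference was not tested. S100a8 was 2.68-fold in stromal-like cells and 0.762-fold in cycling precursor-like cells. S100a9 was 1.96-fold in stromal-like cells and 0.809-fold in stefin-high neutrophil-like cells. In stromal-like cells 2 OVX cells held 68.9% of the S100a8 UMIs and 59.1% of the S100a9 UMIs, and the cycling comparison rested on 18 OVX and 21 sham cells. Without the 2 highest cells in each condition, stromal-like S100a8 was at 489 CPM in OVX and 481 in sham, and S100a9 at 753 and 783. The higher stromal-like levels in OVX thus rested on those cells.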

How the results depend on the processing

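S100a8 and S100a9 made up 27.3% of the UMIs of neutrophil-like cells as reported, and 25.4% with S100 genes kept in the clustering, 26.2% with 1000 variable genes, 27.2% with Leiden clustering, 26.4% after barcodes under 500 genes or over 10% mitochondrial UMIs were dropped, 26.2% without the called doublet, and 22.7% when every cell had equal weight. Set against all other UMIs they came to 37.6%. Each change of genes or barcodes was clustered anew. With S100 genes kept, with 1000 variable genes, with barcodes dropped and without the doublet, no new cluster was made up mainly of Gm42418 and Jund cells. Those cells then fell into other classes, and the part of this in the lower values was not tested. The number of members called between OVX and sham cells, 2 as reported, was 0 with equal weight per cell, 0 with class composition set to that of all cells, and 0 in neutrophil-like cells only, an alternative added after seeing the data. It was 3 with a filter at 10 CPM, where S100a4 was also called, and 2 with S100a8 and S100a9 left out of the denominator, where S100a4 was called and S100a10 (0.679-fold) was not. It was also 2 when a condition needed 80% of the hashtag UMIs of a barcode. S100a6 was then 1.89-fold, S100a8 1.47-fold, S100a9 1.31-fold, S100a11 1.42-fold and S100a10 0.465-fold, each further from 1 than as reported. S100a4, at 0.406-fold, was closer to 1. As reported, 6.04% of 1456 genes were called higher and 16.3% lower between OVX and sham cells. In neutrophil-like cells only, these shares were 5.14% and 5.30% of 1265 genes. They were not computed under the other alternatives. S100a10 changed direction with class composition set to that of all cells, to 0.18 on the log2 scale. It also did so in neutrophil-like cells only, to 0.63, at 20.8 against 13.4 CPM. All 5 members called between stromal-like and neutrophil-like cells were called under each of the 12 alternatives run, and S100a10 stayed 18.0- to 59.3-fold higher. In macrophage-like over neutrophil-like cells S100a4 ranged from 13.2- to 137-fold and S100a10 from 4.25- to 71.0-fold, lowest in the sub-cluster led by mitochondrial transcripts. The thinned share of stromal-like cells with S100a10 was 46.7% at 1000 UMIs and 32.1% at 500. The S100a8 per S100a9 ratio ranged from 0.557 to 0.602 in cycling, 0.587 to 0.602 in secondary-granule, 0.791 to 0.847 in stefin-high and 0.725 to 0.850 in mature cells over the clusterings. No paired analysis was possible because each condition was 1 pool in 1 library. Counting error is small for the abundant members, and differences between mice could not be measured. S100a4 rests on 876 UMIs in 88 cells.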

Other observations

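The 231 barcodes that HTODemux called negative and the 78 called doublets entered no comparison of conditions. Of the negative barcodes 48.1% were stromal-like, and over all of them S100a8 was at 20757, S100a9 at 32590 and S100a10 at 713 CPM. In the 107 neutrophil-like cells among them S100a8 was at 113912, S100a9 at 178711 and S100a6 at 8786. The hashtag doublets had 50409 of S100a8, 66396 of S100a9 and 364 of S100a10.

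The division into 8 clusters also held 112 mature cells led by P2rx7, Trpm2 and Cd3d, with 25 OVX and 63 sham cells. Their S100a11 level, 5745 CPM, was above that of the Thbs1 cells (4871) and of the Gm12840 and Jaml cells (4269), while their S100a8 level was 71101. Their S100a8 per S100a9 ratio, 0.655, was the lowest of the mature groups. The Gm42418 and Jund cluster, left unnamed, had 52539 of S100a8, 57928 of S100a9 and 8948 of S100a6, with a ratio of 0.907.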
